A study of Homo sapiens with 4 samples.

Results

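The keratin genes and the genes of keratin-associated proteins (KRTAPs) lie in a few dense clusters of the human genome, and the 3 clusters covered here are the type II keratins on chromosome 12, the type I keratins with KRTAPs on chromosome 17, and KRTAPs on chromosome 21. Members were all probes that start inside a fixed window around each cluster, grouped by the array's design region, with at least 5 probes to a region. That gave 90 of the 18008 design regions of the series: 27 regions with 627 probes on chromosome 12, 44 regions with 972 probes on chromosome 17, and 19 regions with 428 probes on chromosome 21. That rule uses no measured value, but it was chosen with earlier results of these data known. The first and last regions of the clusters were chr12:50865300-50868000 and chr12:51626721-51629609, chr17:36113028-36115728 and chr17:37033835-37036535, and chr21:30665902-30668602 and chr21:31175245-31177945. Coordinates are those of the deposited files, on the NCBI36/hg18 scale; the build itself is not given in the sources used here.

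The series holds 4 two-colour ChIP-chip arrays, in which immunoprecipitated DNA is hybridised to oligonucleotides tiled over promoters. Every array compared HEK293/RPF-1 Tet- cells, kept for 48 h in medium depleted of tetracycline (induced), with HEK293/RPF-1 Tet+ cells kept for 48 h with tetracycline (uninduced), both precipitated with an anti-HA antibody. HEK293 cells derive from human embryonic kidney, and RPF-1 is a transcription factor. Both states are 1 engineered line in which the factor is made from a transgene, and the ratio printed throughout is induced over uninduced on the log2 scale. Induced DNA carried Cy5 on all 4 arrays, with no dye swap, so dye and induction cannot be told apart. Nothing in the labels says that the 4 arrays came from separate cultures, so a p-value covers only how these 4 arrays vary, which may be technical.

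Keratins are the intermediate filament proteins of epithelia, and each filament is built from pairs of 1 acidic type I and 1 basic type II chain. Different pairs mark different epithelia: KRT8 with KRT18 in simple epithelia, KRT5 with KRT14 in the basal epidermis, KRT1 with KRT10 above it, and the hair keratins in the hair shaft. KRTAPs are small proteins, rich in cysteine or in glycine and tyrosine, that fill the space between hair keratin filaments, and they come in families of near-identical copies. The arrays measure precipitated DNA, not whether any of these genes is expressed.

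The files name no genes. The distances between the regions were therefore lined up with the distances between gene starts in RefSeq on GRCh38.p14, and at 1 spacing per cluster 86 of the 90 regions fell within 600 bp of a gene start (23 of 27 on chromosome 12, 44 of 44 on chromosome 17 and 19 of 19 on chromosome 21). The median mismatch was 14 bp and the largest 480 bp, and the next best spacing lined up 6, 8 and 4 regions in those clusters. For genes missing from the promoter sequences used, both gene ends were tried as the start. The strand of such a gene was read from the match, which could be to its far end. Of the 90 regions, 84 are 2700 bp long, and 79 of these line up with 1 gene. The line-up assumed that the gene start lies 500 bp from an end of the region. On that assumption such a region holds about 2200 bp of upstream promoter and the first 500 bp of the gene. The 4 regions without a name are all on chromosome 12 and are given by position. Of the keratins sorted into the gene classes below, KRT8, KRT72, KRT86 and KRT40 were lined up with no region, so the classes lack them. KRT80 has no named region either and was put in no class.

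The promoter sequences of the region with the highest ratio on each chromosome among those past the test, and of the one with the lowest, are shown first so that their base composition is visible. They are the 250 bases before the gene start, 5′ to 3′ on the gene's strand, from RefSeq on GRCh38.p14, and capitals mark the letters TAATTA, a core that many homeodomain proteins bind. KRT84 (chr12:52385653-52385902, minus strand), KRT28 (chr17:40799960-40800209, minus strand), KRTAP19-1 (chr21:30480368-30480617, minus strand) and KRTAP15-1 (chr21:30440025-30440274, plus strand) read as follows.
KRT84: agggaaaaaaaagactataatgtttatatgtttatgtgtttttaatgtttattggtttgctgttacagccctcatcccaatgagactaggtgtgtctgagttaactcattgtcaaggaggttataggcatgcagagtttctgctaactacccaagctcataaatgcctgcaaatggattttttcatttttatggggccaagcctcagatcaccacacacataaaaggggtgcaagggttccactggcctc
KRT28: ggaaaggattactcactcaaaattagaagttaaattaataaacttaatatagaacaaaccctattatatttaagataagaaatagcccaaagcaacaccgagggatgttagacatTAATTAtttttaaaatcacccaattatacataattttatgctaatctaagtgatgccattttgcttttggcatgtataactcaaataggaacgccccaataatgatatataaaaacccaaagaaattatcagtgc
KRTAP19-1: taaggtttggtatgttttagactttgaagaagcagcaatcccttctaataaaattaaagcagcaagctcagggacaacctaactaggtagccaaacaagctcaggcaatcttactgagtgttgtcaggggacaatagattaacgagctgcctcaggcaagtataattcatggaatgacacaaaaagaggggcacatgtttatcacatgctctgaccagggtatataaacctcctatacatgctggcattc
KRTAP15-1: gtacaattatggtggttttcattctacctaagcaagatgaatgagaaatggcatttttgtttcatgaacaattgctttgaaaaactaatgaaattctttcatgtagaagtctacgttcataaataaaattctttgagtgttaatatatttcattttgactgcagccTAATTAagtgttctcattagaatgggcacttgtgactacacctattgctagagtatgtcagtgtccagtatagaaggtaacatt

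The KRT28 promoter is 28.8% G and C and the KRTAP15-1 promoter 32.0%, and each holds TAATTA once. The KRT84 and KRTAP19-1 promoters, at 40.4% and 41.6%, do not hold it. Promoters were found for 70 of the 90 gene names, and their mean G and C share was 41.9% (49.9% on chromosome 12, 41.6% on chromosome 17 and 37.3% on chromosome 21), against 57.2% over 34943 promoters of the table. TAATTA, which reads the same on both strands, was in 17 of the 70 keratin and KRTAP promoters (24.3%), against 4.35% of all promoters. The octamer ATGCAAAT, known as a site of Oct-1, was searched on both strands and was in 1 of the 70, KRTAP22-2 (1.43%), against 1.63% of all. Among regions with 1 gene, the mean ratio was 0.19 ± 0.17 in the 15 with TAATTA and 0.18 ± 0.17 in the 47 without it (SD, n = 4 arrays). The difference within arrays was 0.02, 0.01, 0.02 and -0.00 (0.01 ± 0.01). TAATTA was searched in the 250 bases before the gene start only, while the ratio is the mean over the whole region. A region counted as without it may therefore hold it elsewhere.

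Regions of both keratin clusters were often higher in induced cells, and the KRTAPs of chromosome 21 were not. A region was called by limma's moderated test of its mean ratio against 0 over the 4 arrays, with Benjamini-Hochberg adjustment over all 18008 regions and a threshold of 0.05. Of the 90 regions, 31 were called higher (34.4%) and 3 lower (3.33%), where 13.7% of all regions of the series were called higher and 13.5% lower. The type I keratin and KRTAP cluster on chromosome 17 had 19 of 44 regions higher (43.2%) and 0 lower, and the type II cluster on chromosome 12 had 11 of 27 higher (40.7%) and 0 lower. On chromosome 21, 1 of 19 regions was higher (5.26%) and 3 were lower (15.8%). With only the probes whose sequence is listed once, the calls on chromosome 12 were 7 higher and 0 lower, where 12.4% of the series was called higher.

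The counts depended on which arrays were kept. Chromosome 12 had 2 regions higher without array 2 and 4 without array 4, and chromosome 17 had 11 without array 2 and 9 without array 4. Over all regions of the series, 6.33% were called higher without array 2 and 6.20% without array 4. The 3 lower calls of chromosome 21 came down to 1 without array 1, array 2 or array 4, and its 1 higher call became 3 without array 1 and 0 without array 2. Lower calls over the series came to 11.1%, 5.15% and 4.44% without arrays 1, 2 and 4, against 13.5% with all arrays. Higher calls over the series came to 13.1% without array 1. Of the 34 called regions, 9 were called on the same side under every other scaling, filter and set of arrays that could be applied (16 or 17 alternatives each, not counting a minimum change of 0.5): KRT84 on chromosome 12, KRT28, KRT33A, KRT31, KRT17, KRTAP4-11, KRTAP4-4 and KRTAP4-2 on chromosome 17, and KRTAP15-1 on chromosome 21. KRTAP4-11 holds no probe that is listed once, so that filter could not be applied to it. The same count was not made over the series, so 9 of 34 cannot be compared with other called regions.

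**Figure D1:**
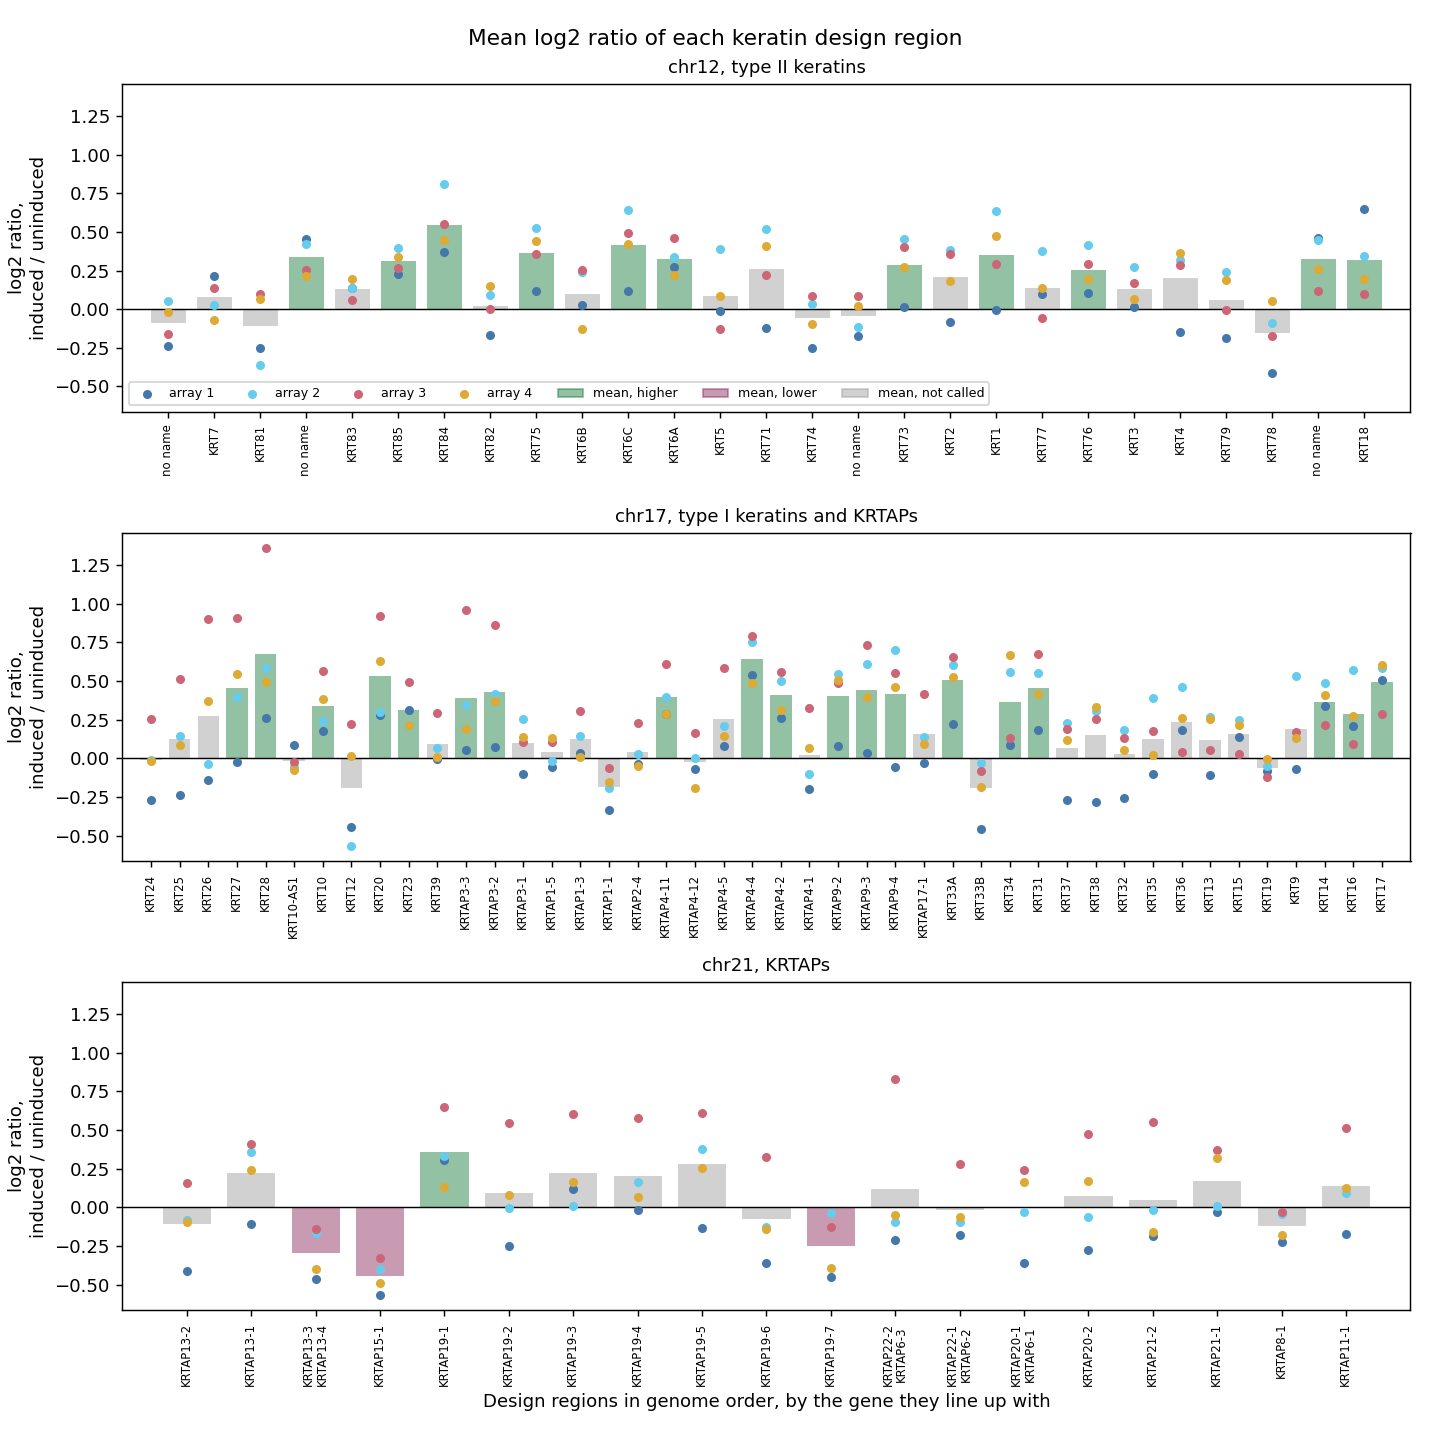
Mean log2 ratio (induced over uninduced) of every design region, in genome order along the horizontal axis for chromosomes 12, 17 and 21. Points are the 4 arrays and bars their mean, coloured by the call; the 3 regions called lower are all on chromosome 21, and array 3 is the highest point in most chromosome 21 regions.

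The cluster means show the same order with a wide spread between arrays. Chromosome 12 averaged 0.05, 0.30, 0.18 and 0.19 in arrays 1 to 4 (0.18 ± 0.10, SD, n = 4), above 0 in all 4. Chromosome 17 averaged 0.02, 0.27, 0.39 and 0.23 (0.23 ± 0.15), also above 0 in all 4. Chromosome 21 averaged -0.21, 0.01, 0.34 and -0.01 (0.03 ± 0.23), so its mean rests on array 3, and it is -0.07 without that array. The rest of the series averaged 0.01 ± 0.02. These means carry no p-value.

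Within each array, chromosome 17 exceeded chromosome 21 by 0.19 ± 0.10, with all 4 arrays on that side. Chromosome 12 exceeded chromosome 21 by 0.14 ± 0.21, with 3 arrays on that side and array 3 at -0.17. Chromosome 17 and chromosome 12 differed by 0.05 ± 0.11, with 2 arrays on each side of 0. The difference from the rest of the series was 0.17 ± 0.10 for chromosome 12 and 0.22 ± 0.14 for chromosome 17, above 0 in 4 of 4 arrays for both. For chromosome 21 it was 0.02 ± 0.21, above 0 in 1 array.

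The neighbourhoods of the clusters also carried ratios away from 0. The 99 regions within 2 Mb on either side of the chromosome 17 window averaged 0.06 ± 0.08, and the window exceeded them by 0.16 ± 0.22, in 3 of 4 arrays, or by 0.07 without array 3. The 73 regions flanking the chromosome 12 window averaged 0.14 ± 0.04 with 22 called higher (30.1%), and the window exceeded them by 0.03 ± 0.12, less than the spread between arrays. After the median of the flanks was subtracted, 3 of 27 regions were called higher and 1 lower on chromosome 12, and 15 of 44 higher and 1 lower on chromosome 17. Over the series 14.2% were then called higher and 12.2% lower. The 28 flanking regions of chromosome 21 averaged -0.08 ± 0.04, and that window exceeded them by 0.12 ± 0.19, or by 0.03 without array 3. With its flanks subtracted, chromosome 21 had 6 of 19 regions higher and 1 lower. Between clusters, chromosome 17 then exceeded chromosome 21 by 0.0405, and chromosome 12 minus chromosome 21 was -0.06, opposite in sign to the value before subtraction.

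**Figure D2:**
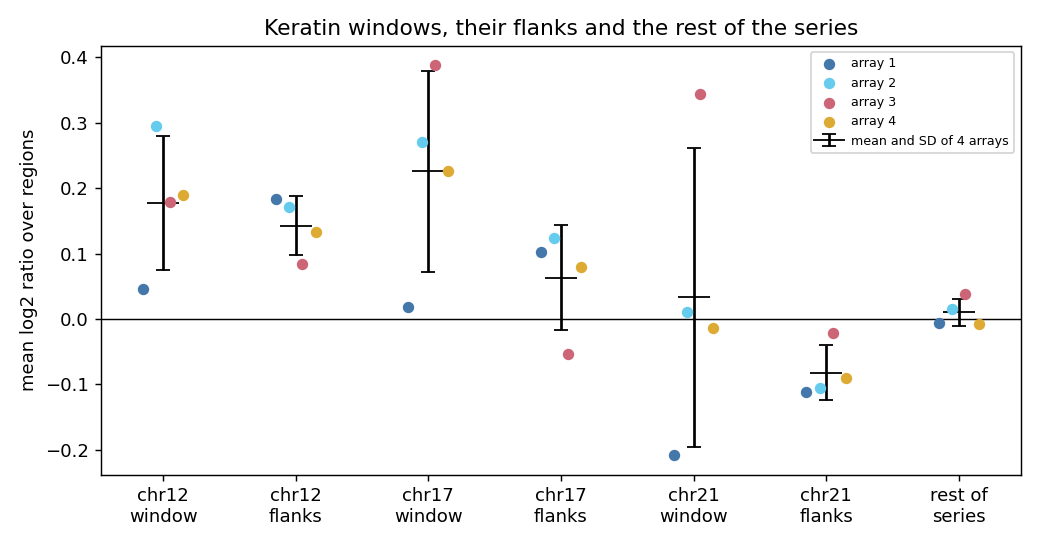
Mean log2 ratio over the regions of each keratin window, of the regions within 2 Mb on either side (flanks) and of the rest of the series. Points are arrays 1 to 4 and bars the mean with the SD over 4 arrays; on chromosome 12 the window (0.18) lies near its flanks (0.14), while the 4 chromosome 21 values run from -0.21 to 0.34.

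Among the type II keratins, the hair keratin KRT84 had the highest ratio. Its region, chr12:51065184-51067884, measured 0.37, 0.81, 0.55 and 0.45 in arrays 1 to 4, a mean of 0.55 ± 0.19 (SD, n = 4; limma adjusted p = 0.0020). All 22 of its probes are listed once, and it was also called after the flanks were subtracted (0.42, limma adjusted p = 0.0047). Of the 5 hair keratin regions, KRT84 and KRT85 were called higher. KRT81, KRT82 and KRT83 measured -0.11, 0.02 and 0.13 and were not called.

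The 13 epithelial type II keratins had 5 regions called higher and 0 lower, with a mean of 0.19 ± 0.15. KRT6C, one of the KRT6 genes that are induced in injured skin, measured 0.12, 0.64, 0.49 and 0.42, all above 0 (0.42 ± 0.22; limma adjusted p = 0.0074). With its 8 probes of single match the mean was 0.14 and the call was lost (limma adjusted p = 0.38), as it was without array 2 (limma adjusted p = 0.053). KRT6A was called at 0.32 and measured 0.19 with single-match probes, where its call was also lost. KRT6B measured 0.10 and was not called, with -0.20 on single-match probes (limma adjusted p = 0.079). With the median over its probes it measured 0.41 and was called higher (limma adjusted p = 0.013). These 3 genes are near-identical, so their ratios cannot be separated at shared probes.

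KRT75, a keratin of the companion layer of the hair follicle, measured 0.12, 0.53, 0.36 and 0.44 (0.36 ± 0.18; limma adjusted p = 0.0097), and lost its call without array 2 or array 4 (limma adjusted p = 0.063 and 0.068). KRT1, the type II keratin of the upper epidermis, measured -0.01, 0.63, 0.29 and 0.47 (0.35 ± 0.28) and was called, as was KRT76, a keratin of the hard palate, at 0.25 ± 0.13. KRT78 had the lowest ratio of the cluster, at -0.41, -0.09, -0.17 and 0.05, and was not called (-0.16 ± 0.20; limma adjusted p = 0.19). Of the 3 inner root sheath keratins of type II with a named region, KRT73 was called higher at 0.29 ± 0.20. KRT71, another of them, measured 0.26 ± 0.28 and was not called, and KRT74 measured -0.06 ± 0.15.

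Of the simple epithelial keratins with a named region, KRT18 was called higher and KRT7 was not. KRT18 measured 0.65, 0.34, 0.10 and 0.20 (0.32 ± 0.24; limma adjusted p = 0.026), highest in array 1, and 0.21 without that array. It was not called on single-match probes (0.22; limma adjusted p = 0.14) or with flanks subtracted (0.20; limma adjusted p = 0.085). KRT7 measured 0.22, 0.03, 0.14 and -0.07 (0.08 ± 0.12). A pair of regions without a name were also called higher: chr12:51584627-51587327, which lies between KRT78 and KRT18, at 0.46, 0.45, 0.12 and 0.26 (0.32 ± 0.16; limma adjusted p = 0.014), and chr12:50979715-50982415, between KRT81 and KRT83, at 0.46, 0.42, 0.25 and 0.22 (0.34 ± 0.12; limma adjusted p = 0.0085). All 4 arrays were above 0 in both. Without array 2 neither was called (limma adjusted p = 0.078 and 0.052), and without array 4 the first was not (limma adjusted p = 0.059).

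On chromosome 17 the highest region belonged to KRT28, an inner root sheath keratin of type I. The region chr17:36209210-36211910 measured 0.26, 0.58, 1.36 and 0.49 (0.67 ± 0.48; limma adjusted p = 0.0072), and without array 3 its mean was 0.44. Its neighbours KRT25, KRT26 and KRT27 were also highest in array 3, and KRT26 measured -0.14, -0.04, 0.90 and 0.37. The 4 type I inner root sheath keratins together averaged -0.03, 0.27, 0.92 and 0.37 (0.38 ± 0.40), with KRT27 and KRT28 called higher, and 0.20 without array 3. Their probes are long, with a class mean of 54.9 bases, against 52.2 bases over the regions of the series.

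The 12 type I epithelial keratins had 6 regions called higher and 0 lower, with a mean of 0.21 ± 0.09. KRT20, a keratin of intestinal and urothelial epithelium, measured 0.28, 0.30, 0.92 and 0.63 (0.53 ± 0.30; limma adjusted p = 0.0052). KRT23 was called at 0.31 ± 0.13 and KRT10, the partner of KRT1, at 0.34 ± 0.17. KRT12, a keratin of the cornea, measured -0.45, -0.57, 0.22 and 0.02, below 0 in arrays 1 and 2 and above 0 in arrays 3 and 4. It was not called (-0.19 ± 0.37; limma adjusted p = 0.24), but was called lower without array 3 (-0.33; limma adjusted p = 0.014) and measured 0.12 with arrays 3 and 4 alone. KRT24, KRT13, KRT15, KRT19 and KRT9 were not called either and lay between -0.06 and 0.19.

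KRT14, KRT16 and KRT17, keratins of basal and activated epidermis, were all called higher. KRT17 measured 0.51, 0.58, 0.29 and 0.60 (0.50 ± 0.14; limma adjusted p = 0.0021). KRT14 measured 0.36 ± 0.12 and KRT16 0.29 ± 0.20. These genes have near-identical copies, and 5, 8 and 6 probes of KRT14, KRT16 and KRT17 are listed once. On those probes alone KRT17 measured 0.54 and was called, and KRT14 and KRT16 measured -0.01 and -0.06 and were not.

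Pairs of filament partners did not share 1 outcome. KRT1 and KRT10 were both called higher, at 0.35 and 0.34, and kept the call in 11 and 15 of 17 alternatives. KRT1 lost it with flanks subtracted (limma adjusted p = 0.11) and with the median over probes (limma adjusted p = 0.074). KRT5 was not called, at 0.08 ± 0.22, while its partner KRT14 was, though not on single-match probes alone. KRT3 and KRT12, the pair of the cornea, measured 0.13 and -0.19, and KRT4 and KRT13, the pair of the oral and oesophageal lining, measured 0.20 and 0.12, none of these 4 being called. The differences within these pairs were not tested. KRT8 has no named region, so its pair with KRT18 could not be compared.

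The 10 type I hair keratins with a named region had 3 regions called higher, KRT31, KRT33A and KRT34, and 0 lower. KRT33A measured 0.22, 0.61, 0.66 and 0.53 (0.50 ± 0.19; limma adjusted p = 0.0027). KRT31 measured 0.46 ± 0.21 and KRT34 0.36 ± 0.30. KRT33B, a close relative of KRT33A, measured -0.46, -0.03, -0.08 and -0.19, below 0 in 4 of 4 arrays but not called (-0.19 ± 0.19; limma adjusted p = 0.11). The lowest KRT33A value, 0.22, was above the highest KRT33B value, -0.03.

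The ultra-high sulphur KRTAPs had 6 of 10 regions called higher and 0 lower, with a mean of 0.31 ± 0.18. KRTAP4-4 measured 0.54, 0.75, 0.79 and 0.49, all 4 well above 0 (0.64 ± 0.15; limma adjusted p = 0.00063), and its 14 single-match probes gave 0.51, also called. All 3 KRTAP9 regions were called, with means of 0.41 to 0.44, and in array 1 they measured 0.08, 0.03 and -0.05. KRTAP4-12 and KRTAP4-1, at -0.03 and 0.02, were not called.

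The high sulphur KRTAPs of chromosome 17 had 2 of 7 regions called higher. KRTAP3-3 and KRTAP3-2 measured 0.39 ± 0.40 and 0.43 ± 0.33 and were called, both highest in array 3, and their means without array 3 were 0.20 and 0.28. The 3 KRTAP1 regions averaged -0.01 ± 0.10 and none was called. A run of 10 neighbouring regions, from KRT39 to KRTAP4-12, holds no probe that is listed once, so their ratios cannot be given for single-match probes. Of these 10, KRTAP3-3, KRTAP3-2 and KRTAP4-11 were called higher.

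Chromosome 21 holds KRTAPs only, and the 3 members called lower in induced cells were there, a share close to that of the series. KRTAP15-1, a high sulphur KRTAP gene at chr21:30732316-30735016, measured -0.57, -0.40, -0.33 and -0.49 (-0.45 ± 0.10; limma adjusted p = 0.0024), below 0 in all 4 arrays. It was called in the main comparison and also after the flanks were subtracted (-0.36; limma adjusted p = 0.0039). The region of KRTAP13-3 and KRTAP13-4 measured -0.46, -0.17, -0.14 and -0.40 (-0.29 ± 0.16; limma adjusted p = 0.020). KRTAP19-7 measured -0.45, -0.04, -0.12 and -0.40 (-0.25 ± 0.20; limma adjusted p = 0.048). After flank subtraction these regions measured -0.21 and -0.17 and were not called. Both also lost the call without array 1, array 2 or array 4 (limma adjusted p between 0.050 and 0.13 for KRTAP13-3 and KRTAP13-4, and between 0.056 and 0.23 for KRTAP19-7).

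KRTAP19-1, of the high glycine-tyrosine KRTAPs, was the 1 region of chromosome 21 called higher. It measured 0.31, 0.33, 0.65 and 0.13 (0.36 ± 0.21; limma adjusted p = 0.014), above 0 in all 4 arrays, and was not called without array 2 (limma adjusted p = 0.059). With the median over its probes in place of the mean it measured 0.18 and was not called (limma adjusted p = 0.29). Its neighbours KRTAP19-3, KRTAP19-4 and KRTAP19-5 measured 0.20 to 0.28 and were not called, but were with their flanks subtracted. The KRTAP19 family of 7 regions averaged -0.11, 0.10, 0.46 and 0.02 (0.12 ± 0.24), and 0.01 without array 3. All 14 high glycine-tyrosine KRTAP regions had 1 call higher and 1 lower, with a mean of 0.08 ± 0.25, or -0.04 without array 3.

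**Figure D3:**
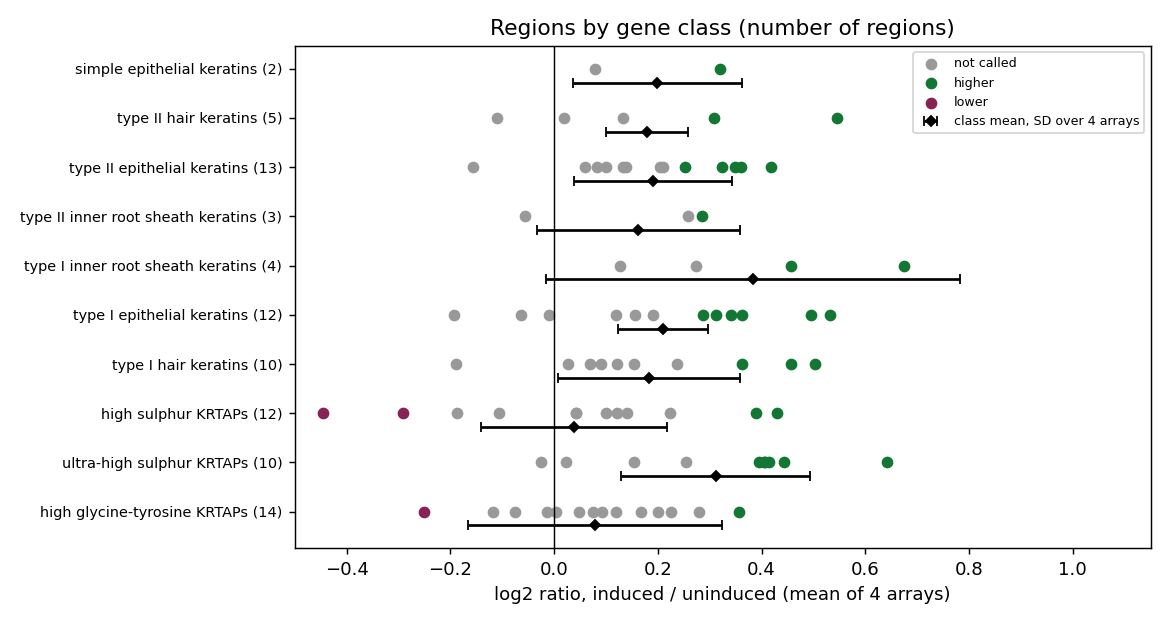
Log2 ratio (induced over uninduced, mean of 4 arrays) of each region by gene class, with the number of regions in brackets. Dots are regions coloured by call and diamonds the class mean with the SD over 4 arrays; 6 of 10 ultra-high sulphur KRTAPs were called higher, and the 3 lower calls are in the high sulphur and the high glycine-tyrosine class.

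Bins of 500 bp with at least 3 probes showed where in the regions the ratios lay. Over the series 17.0% of 76092 bins were called higher and 16.3% lower by limma with the same threshold. The keratin windows had 119 of 406 bins higher (29.3%) and 51 lower (12.6%). Chromosome 17 had 67 of 196 higher and 18 lower, chromosome 12 had 32 of 124 higher and 12 lower, and chromosome 21 had 20 of 86 higher and 21 lower. In 25 regions, both a higher and a lower bin were called, so that the mean of a region can hide opposite parts. Such regions were not counted over the series, so the number shows nothing particular to the keratin windows. Chromosome 12 had 4 lower bins without array 1, 6 without array 2 and 5 without array 4, and chromosome 17 had 8 without array 1, 8 without array 2 and 10 without array 4. Chromosome 21 had 13 higher bins without array 3. The share over all bins of the series is not given for these settings.

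KRT10 showed this most clearly. The bin chr17:36231873-36232222, inside the gene, measured 1.14, 1.55, 1.38 and 1.32, a mean of 1.35 ± 0.17 or 2.54-fold (limma adjusted p = 0.00012). The bin chr17:36232873-36233333, about 700 bp upstream of the gene start, measured -1.22, -1.08, -0.93 and -0.53 (-0.94 ± 0.30; limma adjusted p = 0.00044). All 8 probes of these bins are listed once. The lower bin has probes of 57.3 bases on average and the higher bin of 50.0 bases.

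In KRT28 the highest bin lay upstream, at chr17:36210710-36211159, and measured 0.66, 1.20, 1.74 and 0.76 (1.09 ± 0.49; limma adjusted p = 0.00053). Its single probes had means between 0.74 and 1.40 from -1924 to -926 bp relative to the gene start and of -1.13 and -0.90 at -529.5 and -225 bp. The highest KRTAP4-4 bin measured 1.14 ± 0.27 inside the gene, with no single-match probe. The highest KRT18 bin measured 0.98 ± 0.17, also with no single-match probe.

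On chromosome 21 the lowest bins were in the region of KRTAP22-1 and KRTAP6-2 (-1.04 ± 0.14), in KRTAP15-1 (-0.94 ± 0.16) and in KRTAP21-1 (-0.86 ± 0.15), each with all 4 arrays below 0 (limma adjusted p = 0.00017, 0.00027 and 0.00040). In KRTAP15-1 that bin was centred at -971 bp relative to the gene start, and the probes in the first 500 bp of the gene were between -0.23 and 0.55. Low bins were also called on the other chromosomes, in KRT24 (-0.90 ± 0.06), KRTAP1-1 (-0.91 ± 0.39), KRT6B (-0.89 ± 0.08) and KRT81 (-0.65 ± 0.13).

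**Figure D4:**
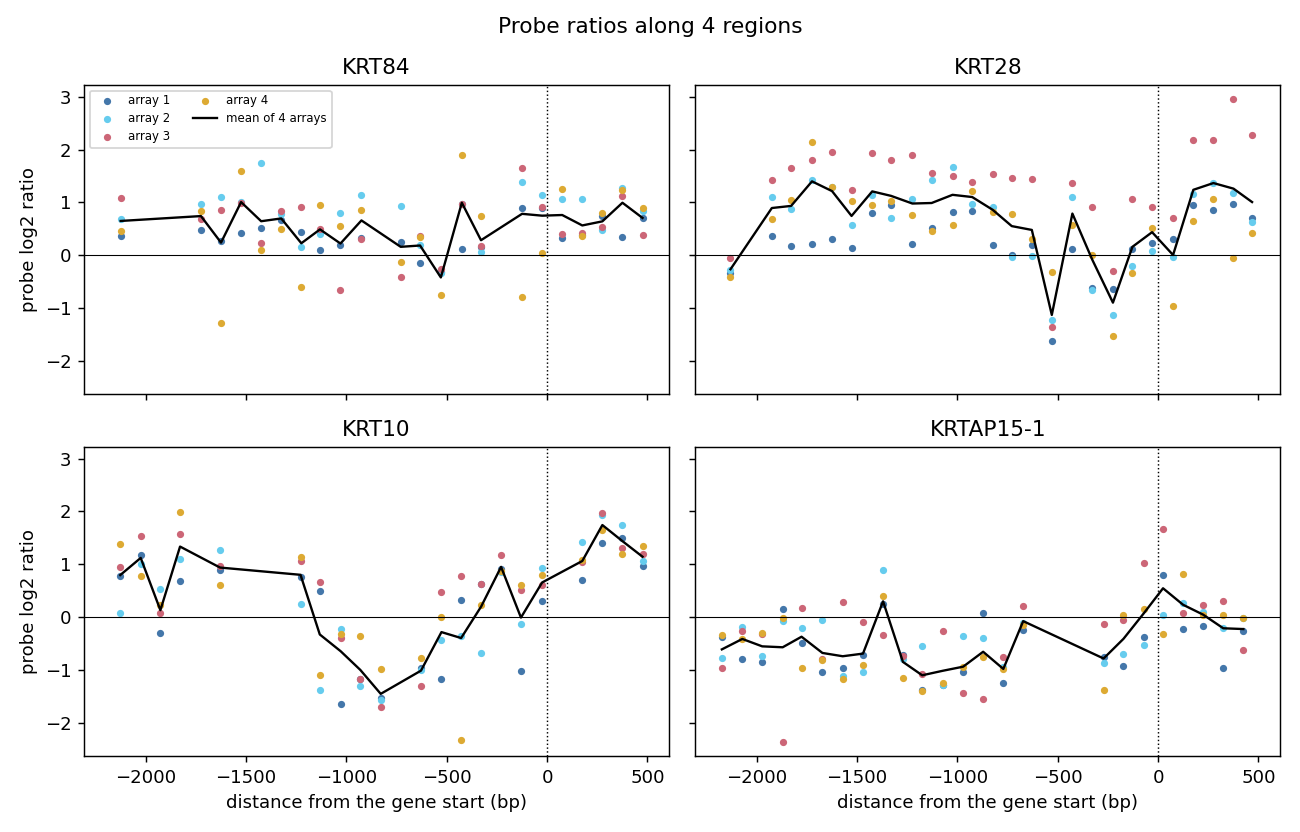
Probe log2 ratios (induced over uninduced) against distance from the gene start in bp, where negative is upstream, in the regions of KRT84, KRT28, KRT10 and KRTAP15-1. Points are the 4 arrays and the line their mean; KRT84 is above 0 along most of its region, KRT10 is high in the gene and low about 800 bp upstream, and KRTAP15-1 is low upstream and near 0 in the gene.

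Lined up by gene start, the first 500 bp of the genes had the highest mean ratio over the 3 clusters together. Over 79 regions of 2700 bp with 1 gene the mean was 0.43 ± 0.15 in the gene, against 0.14 ± 0.15 in the 700 bp upstream. The difference was 0.31, 0.36, 0.26 and 0.23 in arrays 1 to 4 (0.29 ± 0.06), positive in 55 of 79 regions. It was alike in size in the clusters, at 0.30 ± 0.08 on chromosome 12, 0.29 ± 0.06 on chromosome 17 and 0.26 ± 0.13 on chromosome 21. On chromosome 21 alone the 200 bp before the gene start measured 0.46 ± 0.37 and the first 500 bp of the gene 0.43 ± 0.29. The lowest stretch was 700 to 1200 bp upstream on chromosome 21, at -0.48, -0.33, -0.14 and -0.40 (-0.34 ± 0.14).

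Genes are not named outside the windows, so a different measure was taken of all 2700 bp regions without regard to strand. This measure was chosen after the profile was seen. It joins the far upstream end of a region to the gene end, so it does not measure the step at the gene start. The outer 500 bp at both ends minus the rest came to 0.25, 0.26, 0.21 and 0.18 in the 84 keratin regions of that length (0.22 ± 0.04), against -0.01, 0.06, -0.01 and -0.01 in 15875 other regions (0.00 ± 0.03). It was positive in 67.9% of the keratin regions and in 50.2% of the others. Probes in the first 500 bp of the keratin genes were shorter, at 50.9 bases on average, than the 52.5 to 54.4 bases of the upstream stretches, and more often listed more than once. With single-match probes alone the gene part measured 0.30 ± 0.15 over 62 regions. The 200 bp before the gene start then measured 0.16 ± 0.13 over 62 regions. The stretch between 700 and 200 bp upstream measured 0.12 ± 0.16 over 70 regions. The difference from the full 700 bp was not taken for these probes.

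**Figure D5:**
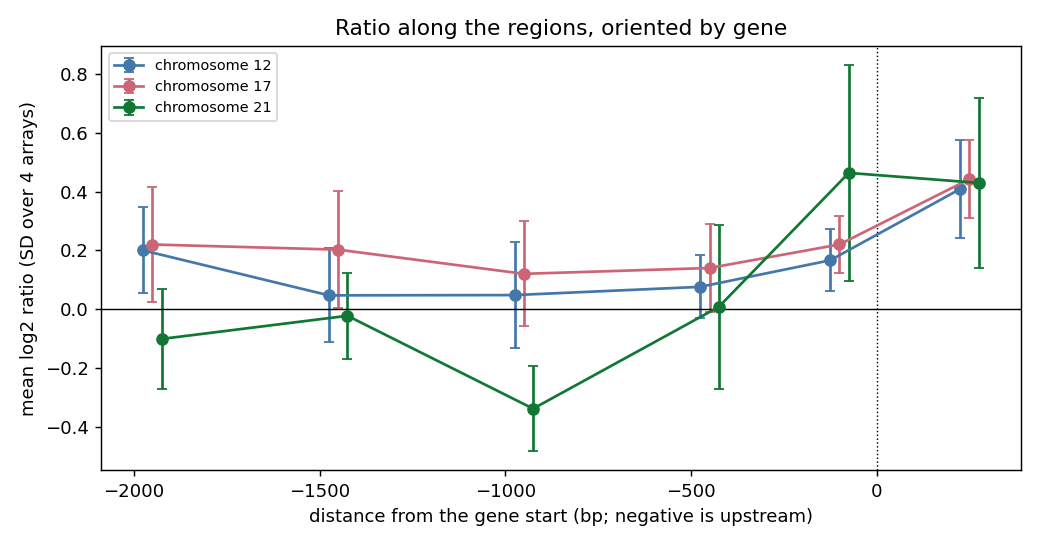
Mean log2 ratio (induced over uninduced) against distance from the gene start in bp, where negative is upstream, for regions of 2700 bp with 1 gene. Points are means over regions and bars the SD over 4 arrays; all 3 clusters reach 0.41 to 0.44 in the first 500 bp of the gene, and chromosome 21 dips to -0.34 at 700 to 1200 bp upstream.

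A pair of probe properties moved with the ratio. The files give each probe a count field that they do not define, read here as the number of places the probe matches; 21.6% of the keratin probes and 36.5% of those on chromosome 17 had a count of 2 or more, against 6.33% in the series. Keratin probes with a count of 2 or more averaged 0.35 ± 0.13 and those with a count of 1 averaged 0.11 ± 0.14. In the whole series the same classes averaged 0.29 ± 0.09 and -0.01 ± 0.02. Of the keratin probes with a count above 1, 241 had a count of 2 and averaged 0.12 ± 0.16, close to the single-match value, and 125 had a count of 3 or 4 and averaged 0.55 ± 0.13. On chromosome 17 the probes with a count of 2 averaged 0.07 ± 0.17, below the single-match probes at 0.20 ± 0.17. At a count of 10 or more, 18 keratin probes averaged 1.11 ± 0.19. By cluster, single-match probes averaged 0.13 ± 0.10 on chromosome 12, 0.20 ± 0.17 on chromosome 17 and -0.04 ± 0.22 on chromosome 21.

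Probe length averaged 51.3 bases per region on chromosome 12, 53.3 on chromosome 17 and 55.4 on chromosome 21, against 52.2 in the series. Over the 90 regions it correlated with the ratio at r = -0.35, -0.38, 0.38 and -0.26 in arrays 1 to 4, and over the series at -0.24, -0.10, 0.43 and 0.06. Within chromosome 12 the values were 0.01, 0.27, 0.58 and 0.14, within chromosome 17 they were -0.34, -0.44, 0.34 and -0.20, and within chromosome 21 they were 0.13, 0.02, 0.06 and 0.02. Regions of 1 cluster share their neighbourhood and base composition, so these are descriptions. Array 3 is the array in which long probes had high ratios, and it is also the array with the highest chromosome 21 mean. With probe length and flanks both subtracted, an alternative added after the data were seen, chromosome 12 had 6 regions higher and 2 lower, chromosome 17 had 18 higher and 2 lower, and chromosome 21 had 6 higher and 1 lower, where 16.4% of the series was called higher and 14.0% lower. The part that probe length and match count have in the ratios was not tested.

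All 4 arrays held the same 386230 probes, and the members had 10 to 42 probes per region, with a median of 23. Between pairs of arrays the 90 region means correlated at 0.37 to 0.77, with a median of 0.58, against a median of 0.61 over the series. File names carry the mark N39 for arrays 1 and 2 and N44 for arrays 3 and 4. What these marks stand for is not given in the sources used here. Within N39 the means were 0.17 on chromosome 12, 0.14 on chromosome 17 and -0.10 on chromosome 21, and within N44 they were 0.18, 0.31 and 0.16. Chromosome 17 was above chromosome 21 in both.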

How the data were processed

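The authors deposited for each of 4 arrays, per the file headers and the feature names in the files, NimbleScan ratios of the 635 nm over the 532 nm signal of every probe, taken here as log2 ratios because the base is not written. The sources used here do not give background correction, software version or genome build. Each header states a biweight mean, and the deposited medians lie between -0.01 and 0.00. Per the labels' protocols, cells were fixed with 1% formaldehyde, chromatin was sheared to 500 bp, and the precipitate was amplified before labelling.

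Each array was centred on its median, and probes were averaged per design region with at least 5 probes and per 500 bp bin with at least 3. Regions and bins of the whole series were tested against 0 with limma 3.58.1 in R 4.3.3 on 4 arrays (two-sided, Benjamini-Hochberg, threshold 0.05). The procedure was tested on simulated data, with 100 features shifted by 0.5 and 100 by 1 in size. The region test recovered 66 and 100 of them. The bin test recovered 1 and 48, so in that setting it missed many changes of these sizes. Only these features were shifted in the simulation, while 17.0% of the real bins were called higher and 16.3% lower. The adjusted threshold was therefore stricter in the simulation, and the recovery does not carry over to the data. False calls numbered 2 for regions and 1 for bins. The simulation flipped signs at random, which removes effects shared between features or arrays. These numbers therefore do not carry over either. Summaries used pandas 2.3.3. Cluster and class means are given as mean ± SD over arrays, without p. The number of arrays limits the precision.

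Members, gene lists and tests were chosen with earlier results of these data known. Of the called regions with the same sign in 4 arrays, the 5 highest and 5 lowest per cluster were named, and the most extreme region where none passed; likewise the 3 highest and 3 lowest bins. Other regions are named as members of their class. Alternatives changed the scaling, the averaging, the probes used, the flanks, the limma settings, the bin size and the arrays. Gene names come from spacing alone, and RefSeq coordinates on GRCh38.p14 are given for the printed promoters only.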

Additional observations from a re-analysis of the deposited data

Results flagged for a closer look

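Of 32 cluster and class values tested for 1 array standing far from the other 3, 2 were flagged, where chance gives about 1.6. The difference of chromosome 17 minus chromosome 21 was 0.0441 in array 3 and between 0.23 and 0.26 in the others. The mean of the type I epithelial keratins was 0.0822 in array 1 and between 0.24 and 0.27 in the others.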

How the results depend on the processing

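No paired analysis was possible because the 4 arrays form 1 group and each ratio is already a comparison within an array. Calls by cluster depended on single arrays. Leaving out 1 array at a time, chromosome 12 had 2 to 13 regions higher (11 with all arrays; 2 without array 2) and 0 lower, chromosome 17 had 9 to 21 higher (19 with all; 9 without array 4, 11 without array 2) and 0 to 2 lower, and chromosome 21 had 0 to 3 higher and 1 to 3 lower. Over the series, 6.20% to 14.5% of regions were then called higher and 4.44% to 14.4% lower. The cluster means ranged over 0.14 to 0.22, 0.17 to 0.29 and -0.07 to 0.11 in that order of chromosomes. The differences ranged from -0.01 to 0.07 for chromosome 17 minus 12, from 0.17 to 0.24 for 17 minus 21, and from 0.10 to 0.25 for 12 minus 21. Higher and lower bins ranged over 21 to 33 and 4 to 11 on chromosome 12, 53 to 73 and 8 to 23 on chromosome 17, and 13 to 20 and 15 to 24 on chromosome 21.

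Subtracting the flanks gave 3 higher and 1 lower and a mean of 0.0563 on chromosome 12, 1 lower on chromosome 17, 6 higher and 1 lower on chromosome 21, and 0.0405 for 17 minus 21 and -0.06 for 12 minus 21. Subtracting probe length as well gave 6 higher, 2 lower and a mean of 0.0576 on chromosome 12, 2 lower on chromosome 17, 6 higher and 1 lower on chromosome 21, 0.0301 for 17 minus 21 and -0.0884 for 12 minus 21. Probe length alone gave 4 higher on chromosome 21, quantile normalization 2, and array weights 4, with 1 lower on chromosome 17. The trended robust fit also gave 1 lower there. Over the series, 16.3% of regions were called higher with probe length subtracted, 14.8% with quantile normalization and 19.2% with array weights. Lower calls over the series came to 20.3% with array weights and 17.6% with the robust fit. Single-match probes gave 7 higher regions on chromosome 12, where 12.4% of the series was called higher, and 37 higher and 8 lower of the 125 bins that could still be tested on chromosome 17. The N39 arrays alone gave 6 higher on chromosome 12, 11 higher and 1 lower on chromosome 17 and 1 lower on chromosome 21. The N44 arrays gave 5 higher and 1 lower on chromosome 21. Over the series, 9.82% were called higher and 8.86% lower with the N39 arrays, and 10.7% and 7.10% with the N44 arrays. A minimum change of 0.5 left 1 higher region on chromosome 12, 4 on chromosome 17, and 0 higher and 0 lower on chromosome 21. Bins of 250 bp gave 69 higher and 23 lower, 122 and 35, and 33 and 36 on chromosomes 12, 17 and 21; bins of 1000 bp gave 3 lower, 43 higher and 7 lower, and 11 higher. KRT12 turned to 0.12 with the N44 arrays. Of 272 alternative values of 16 named regions, 237 kept their direction and call, 30 lost the call and 4 gained one. The cause was not tested.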
